A study of Mus musculus with 8 samples.

Results

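The Hox genes of mouse skin were described in 8 RNA sequencing libraries, 4 labelled NcstnΔKC and 4 labelled normal. They were taken from the table of 34745 genes by name, as every row called Hoxa, Hoxb, Hoxc or Hoxd followed by a number alone, which gave 39 genes and left out antisense and opposite-strand rows. The 39 genes comprised 11 Hoxa genes on chromosome 6, 10 Hoxb genes on chromosome 11, 9 Hoxc genes on chromosome 15 and 9 Hoxd genes on chromosome 2. The group labelled NcstnΔKC carried the alleles Ncstn flx/flx and Krt14 CreER+/- and was dosed from 8 weeks of age with tamoxifen, 20 mg per kg daily over 5 days and again every 10 days afterwards. Krt14 drives the recombinase in keratinocytes of the basal epidermis and hair follicle, so dermal fibroblasts, muscle and fat keep Ncstn, which encodes the γ-secretase subunit nicastrin. The normal group received corn oil and had the same alleles according to the protocol text, whereas its genotype label reads wildtype. All mice were labelled male and were killed at 16 weeks, and whole lesional skin was taken, so dermis, fat and muscle were included. The body site of excision was not named in the labels.

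Hox genes encode homeodomain transcription factors that specify position along the body axis and the limbs. In each of the 4 clusters, the order of the genes along the chromosome follows the order of their expression from head to tail, and genes at the same place in different clusters form a paralog group. Low-numbered groups act in the hindbrain and neck, middle groups in the chest, and high-numbered groups in the lumbar region, tail, genitals and distal limbs. Adult skin keeps such a code, chiefly in dermal fibroblasts, so that the set of Hox genes expressed differs between body sites. Hoxc13 is an exception, since it is also expressed in the matrix of the growing hair and in the nail, where it activates hair keratin genes.

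Total counts ran from 11881506 to 12893174 in the libraries labelled NcstnΔKC and from 5835422 to 8663753 in the normal libraries. Ncstn RNA did not pass the test as lower, at 57.7 ± 6.86 CPM in libraries labelled NcstnΔKC, against 60.6 ± 1.54 CPM in normal libraries (SD, n = 4 each, log2 fold change -0.07 ± 0.12 SE, adjusted p = 0.663), so the deletion was not seen in whole skin. CPM are the usual counts relative to library size, after TMM scaling, and fold changes are those of the libraries labelled NcstnΔKC over the normal libraries. Both groups held libraries that went against the male label. Xist, the transcript of the inactive X chromosome, had 37109 and 36905 counts in NcstnΔKC replicates 3 and 4 and 24421 and 22304 in normal replicates 3 and 4, against at most 9 counts in the other 4 libraries. Genes of the mitochondrial genome took at most 0.939% of the counts in libraries labelled NcstnΔKC and at least 3.42% in normal libraries. The labels do not state that each replicate was a separate mouse, so p-values measure only the spread between these libraries, part of which may be technical. Xist sets replicates 3 and 4 apart from replicates 1 and 2 in both groups, so each group held more than 1 mouse. Normal replicate 1 stood apart in its Hox genes and normal replicate 2 in its hair genes, as described with the results they touch.

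Of the 39 Hox genes, 10 had fewer than 10 counts over all 8 libraries together, and these were mostly genes of the high-numbered groups. Hoxb13, Hoxd1, Hoxd12 and Hoxd13 had 0 of 79711342 counts, which allows a level of up to 0.0376 CPM, unscaled (3 counts, counting error only). Hoxb1, Hoxa11, Hoxa13, Hoxc11, Hoxc12 and Hoxd11 had between 1 and 7 counts in all. Hoxa13, needed for digits and the urogenital tract, had 2 counts in NcstnΔKC replicate 3, 1 count in normal replicate 3 and 0 in the other libraries. Hoxc12, the neighbour of Hoxc13, had 0 counts in all 4 libraries labelled NcstnΔKC, against 2, 2, 1 and 2 counts in normal replicates 1 to 4. With Hoxb13, which acts in the tail and prostate, and Hoxd13, which acts in the digits, at 0, and the other members of groups 11 to 13 apart from Hoxc13 at 6 counts or fewer per library in sum, little RNA of the distal code was detected in any library.

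**Figure D1:**
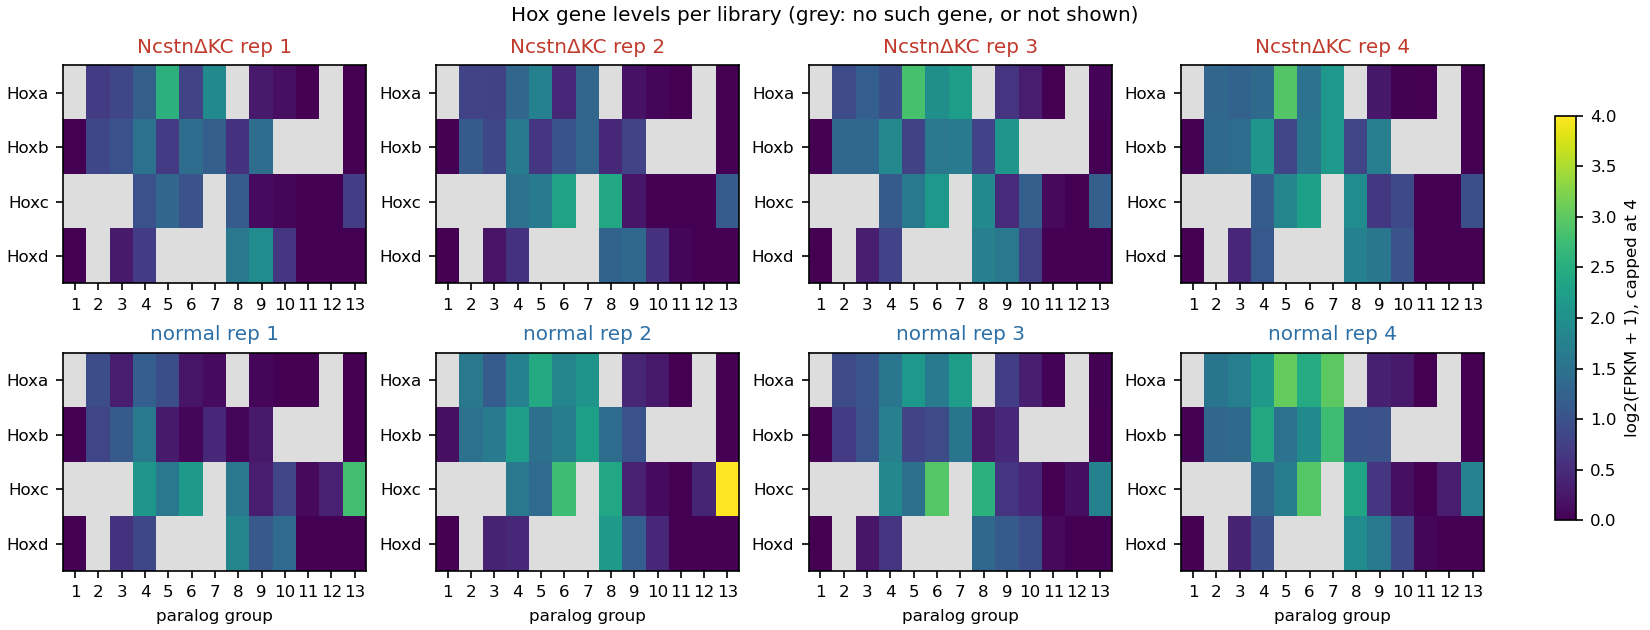
Heat maps of the level of each Hox gene in each library, as log2(FPKM + 1) with the colour capped at 4, with the 4 libraries labelled NcstnΔKC in the upper row and the 4 normal libraries in the lower row. Columns are paralog groups 1 to 13, rows are the 4 clusters, and grey cells are genes that do not exist or are not shown. Signal fills groups 2 to 10 in most libraries, the right edge is dark except for Hoxc13, and normal replicate 1 is dark in the middle of the Hoxa and Hoxb rows.

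Most of the 27 Hox genes with a mean of at least 1 CPM were members of groups 2 to 10. In the deposited FPKM, averaged over the 8 libraries, Hoxc13 came first at 5.79, a mean raised by normal replicate 2 at 31.5 FPKM. It averaged 1.04 FPKM in libraries labelled NcstnΔKC, below 17 other Hox genes there, against 10.5 FPKM in normal libraries. In the mean over the 8 libraries it was followed by Hoxa5 at 4.52, Hoxc6 at 4.35, Hoxc8 at 3.30, Hoxa7 at 3.15, Hoxb4 at 2.80, Hoxb7 at 2.53 and Hoxd8 at 2.33 FPKM. Neighbours in this order did not differ beyond their spread, since Hoxa5 alone ranged from 0.947 to 7.28 FPKM and Hoxd8 from 1.41 to 3.497 FPKM. The order also rests on the gene lengths implied by the deposited FPKM, which did not match the annotated exon bases for every gene. For Hoxa7 the implied length was 5552 bases, against 2876 exon bases, and for Hoxc8 it was 4091 against 2832. For Hoxc13 both were 2461 and for Hoxa5 both were 1877, so FPKM of different genes are not strictly comparable. The FPKM of all 39 genes summed to 33.0, 34.1, 51.0 and 53.0 in NcstnΔKC replicates 1 to 4, against 33.8, 86.6, 46.5 and 72.0 in normal replicates 1 to 4, and the ranges overlapped. At least 10 counts were found for 26, 25, 29 and 28 Hox genes in NcstnΔKC replicates 1 to 4, against 19, 24, 26 and 27 in the shallower normal replicates. After thinning every library to the smallest total, the numbers were 21, 20, 26 and 26, against 16, 24, 22 and 26.

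Promoter sequences were at hand for 22 of the 39 genes, from RefSeq on the build GRCm38.p6, and 6 of them are given to show the genes on which the pattern turns. Each line holds the 250 bases before a listed start of transcription, 5′ to 3′ on the strand of the gene, in lower case with matches to any of 3 motifs in capitals. For Hoxa7 (counted over chr6:52214491-52221854) and Hoxc4 (chr15:103018934-103036852) the window lies inside the counted gene, before an internal start. Hoxa5 (chr6:52204588-52204837, minus strand), Hoxa7 (chr6:52218574-52218823, minus strand) and Hoxb8 (chr11:96281655-96281904, plus strand) are genes of the trunk code that were low in normal replicate 1. Hoxc4 (chr15:103034145-103034394, plus strand) was kept in that library and was lower in the libraries labelled NcstnΔKC. Hoxa13 (chr6:52260881-52261130, minus strand) and Hoxd13 (chr2:74667975-74668224, plus strand) are the distal genes at or near 0. Hoxa7, Hoxb8 and Hoxc4 were chosen for display after their values were seen.
Hoxa5: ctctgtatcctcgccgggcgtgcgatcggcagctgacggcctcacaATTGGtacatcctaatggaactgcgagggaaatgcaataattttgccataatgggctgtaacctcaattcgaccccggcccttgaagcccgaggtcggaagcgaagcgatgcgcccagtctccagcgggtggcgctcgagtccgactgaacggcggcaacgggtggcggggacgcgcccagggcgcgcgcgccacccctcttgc
Hoxa7: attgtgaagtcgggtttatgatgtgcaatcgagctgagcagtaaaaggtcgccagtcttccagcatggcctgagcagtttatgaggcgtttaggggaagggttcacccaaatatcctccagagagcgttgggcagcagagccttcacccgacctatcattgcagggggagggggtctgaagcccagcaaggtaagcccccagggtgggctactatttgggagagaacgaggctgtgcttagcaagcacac
Hoxb8: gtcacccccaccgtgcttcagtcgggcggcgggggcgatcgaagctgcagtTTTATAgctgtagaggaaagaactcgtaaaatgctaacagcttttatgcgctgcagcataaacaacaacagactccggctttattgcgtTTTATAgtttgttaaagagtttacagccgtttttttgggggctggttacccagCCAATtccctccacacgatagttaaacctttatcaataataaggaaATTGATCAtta
Hoxc4: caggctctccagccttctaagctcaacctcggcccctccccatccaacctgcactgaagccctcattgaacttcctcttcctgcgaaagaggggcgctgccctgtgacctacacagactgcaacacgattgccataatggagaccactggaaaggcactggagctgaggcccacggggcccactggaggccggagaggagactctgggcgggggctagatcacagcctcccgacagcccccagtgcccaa
Hoxa13: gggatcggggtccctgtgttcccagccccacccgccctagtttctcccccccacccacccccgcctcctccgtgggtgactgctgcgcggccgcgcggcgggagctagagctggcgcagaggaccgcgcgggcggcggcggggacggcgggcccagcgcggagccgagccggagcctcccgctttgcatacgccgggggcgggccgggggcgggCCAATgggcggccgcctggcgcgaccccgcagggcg
Hoxd13: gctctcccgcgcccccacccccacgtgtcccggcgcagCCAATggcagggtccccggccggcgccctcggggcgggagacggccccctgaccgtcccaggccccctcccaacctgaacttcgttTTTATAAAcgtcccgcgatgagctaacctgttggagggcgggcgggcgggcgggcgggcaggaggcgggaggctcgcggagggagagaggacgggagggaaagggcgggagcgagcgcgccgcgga
The motifs were TATAAA, the TATA box, CCAAT, bound by NF-Y, and TGATNNAT, a site on which Hox and Pbx proteins can bind together, each searched on both strands. TATAAA was present in 4 of the 24 Hox promoters listed for these genes, against 12.4% of all 32851 promoters of the same length, CCAAT in 14 of 24 against 33.8%, and TGATNNAT in 4 of 24 against 7.68%. Hoxb8 held all 3 motifs, Hoxd13 held TATAAA and CCAAT, Hoxa5 and Hoxa13 held CCAAT, and Hoxa7 and Hoxc4 held none of them in this window. The CpG dinucleotides numbered 28 in Hoxa5, 7 in Hoxa7, 12 in Hoxb8, 8 in Hoxc4, 35 in Hoxa13 and 31 in Hoxd13, against a median of 12.5 over the 24 Hox promoters and 6 over all promoters. Hoxa13 and Hoxd13 had the most CpG dinucleotides of the 6, and Hoxa5, with more counts than both, came next. The 6 were chosen in part by their levels, so a link between CpG number and counts was not tested.

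Normal replicate 1 stood apart from every other library. It lacked most of the trunk genes of the Hoxa and Hoxb clusters, while those of the Hoxc and Hoxd clusters were present, some at lower levels than in the other normal libraries. Of the 28 Hox genes with enough counts to be tested, 12 had their lowest CPM of all 8 libraries in normal replicate 1, whereas that library was the lowest in 11.1% of all tested genes. Those 12 were Hoxa3, Hoxa5, Hoxa6, Hoxa7, Hoxa9, Hoxa10, Hoxb5, Hoxb6, Hoxb7, Hoxb8, Hoxb9 and Hoxd9. NcstnΔKC replicate 1 was the lowest in another 8 of the 28, against 21.5% of all tested genes.

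In shares of the Hox counts of a library, Hoxa groups 5 to 10 made up 2.37% in normal replicate 1, against 12.2% to 25.3% in the other 7 libraries. Hoxb groups 5 to 9 made up 2.24% there, against 7.43% to 15.8% elsewhere. Hoxc groups 5 to 10 made up 25.0% there and Hoxd groups 8 to 10 made up 16.1%, inside or just above the ranges of 12.3% to 31.8% and 7.51% to 15.2% in the other libraries. Genes of groups 1 to 4 made up 41.1%, above the 23.0% to 33.7% of the others. These blocks were drawn after the values had been seen, so the shares are descriptions. The highest group with at least 10 counts in this library was 5 for Hoxa and 4 for Hoxb, against 9 or 10 for Hoxa and 7 to 9 for Hoxb in the other libraries, while Hoxd reached group 10 there as in 6 of the other 7 libraries. With a minimum of 3 counts it reached group 7 for Hoxa, against 9 or 10 elsewhere, and group 9 for Hoxb as every other library did. After thinning every library to the smallest total, with at least 10 counts, it reached group 4 for both Hoxa and Hoxb. The other libraries then reached 7 to 10 for Hoxa and 7 to 9 for Hoxb.

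**Figure D2:**
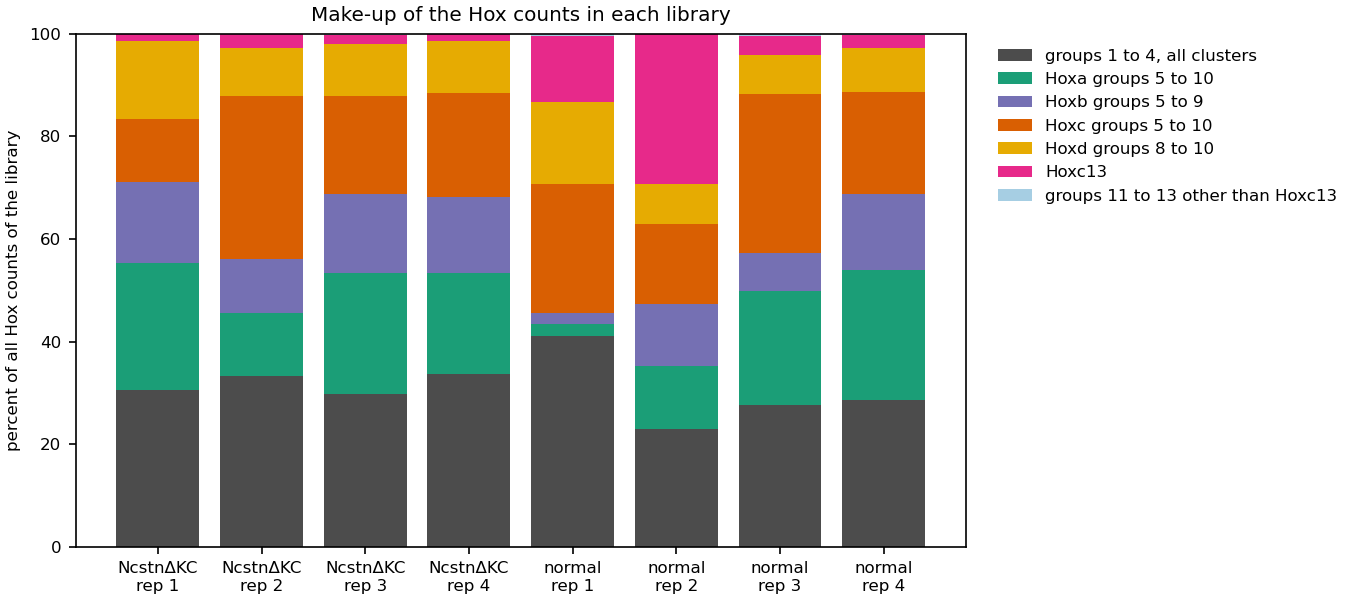
Stacked bars of the percent of all Hox counts in each library (vertical axis, from 0 to 100) taken by blocks of the 4 clusters, with the libraries labelled NcstnΔKC on the left and the normal libraries on the right. In normal replicate 1 the green Hoxa block is 2.37% and the purple Hoxb block 2.24%, and in normal replicate 2 the pink Hoxc13 block is the widest of all libraries.

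Across the 39 genes, the Pearson correlation of log2(FPKM + 1) between normal replicate 1 and each other library ran from 0.472 to 0.729, with a median of 0.557. Between all other pairs of libraries it ran from 0.673 to 0.967, with a median of 0.852, and within the libraries labelled NcstnΔKC from 0.821 to 0.967. The points are genes that share libraries and depth, so these values are descriptions. Normal replicate 1 also differed from the other normal libraries outside the Hox genes. Otx1, a head gene chosen here after its values were seen, had 21.7 CPM in it, against 0.134 to 0.820 CPM in libraries labelled NcstnΔKC and 0.403 to 2.54 CPM in normal replicates 2 to 4. Hand2, a gene of the posterior limb bud, branchial arches and heart seen in the same way, had 3.49 CPM in it and at most 0.706 CPM in any other library. Whole lists did not stand out in this way. The 18 listed genes of head position summed to 60.6 CPM in normal replicate 1, against 65.5, 57.0 and 47.9 CPM in normal replicates 2 to 4. The 17 of limb and trunk position summed to 307 CPM in normal replicate 1, against 386, 344 and 359 CPM. The summed CPM of 18 skeletal muscle genes was 22882 in it, against 4589 to 30579 in libraries labelled NcstnΔKC and 113996 to 189965 in the other normal libraries. The 16 fibroblast genes summed to 34884 CPM in it, near the 35864 CPM of normal replicate 2 and above the 5267 and 6100 CPM of normal replicates 3 and 4 and the 5037 to 13985 CPM of libraries labelled NcstnΔKC. Whether this library came from another place on the body was not tested, since no label gives the site.

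The comparison asked whether position-identity genes differed between skin in which Ncstn was meant to be lost from keratinocytes and normal skin. Hoxc13, Hoxc4, Hoxc6 and Hoxa4 were lower in the libraries labelled NcstnΔKC, and no Hox gene was higher. The 4 genes are 14.3% of the 28 tested, whereas 44.1% of all tested genes passed, 22.7% as lower and 21.4% as higher, so the share of lower genes was not above that of the whole table (edgeR's quasi-likelihood test, Benjamini-Hochberg adjusted p under 0.05). At an unadjusted p under 0.05 the numbers were 6 lower and 1 higher, against 26.8% and 25.7% of all tested genes. DESeq2's Wald test and limma-voom likewise called 4 lower and 0 higher, against 24.0% lower and 23.9% higher of all genes with DESeq2 and 22.6% and 20.2% with limma-voom. The fold changes nonetheless leaned one way, as 25 of 28 were negative, against 51.0% of all tested genes, and their median log2 fold change was -0.67, against -0.02 for all tested genes. Without normal replicate 1, 6 Hox genes were lower, which adds Hoxc8 and Hoxb5, and 0 were higher, against 19.0% lower and 21.2% higher of all genes tested then. Without normal replicate 2, Hoxc13 and Hoxc4 alone were lower and 0 were higher, against 19.4% and 21.6%.

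**Figure D3:**
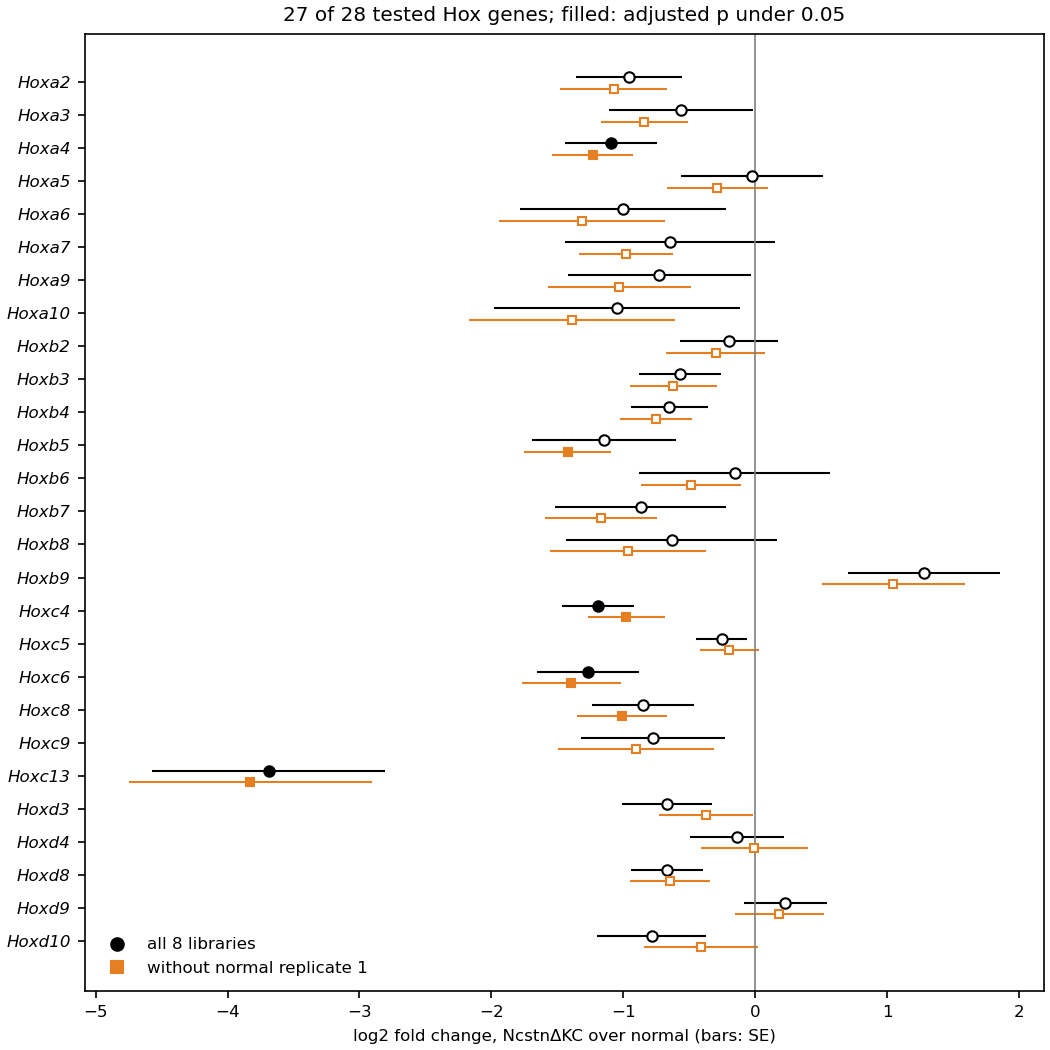
Log2 fold changes of 27 of the 28 tested Hox genes (horizontal axis, libraries labelled NcstnΔKC over normal, bars are SE), from all 8 libraries as black circles and without normal replicate 1 as orange squares, filled where the adjusted p is under 0.05. Most symbols lie left of 0, Hoxc13 lies farthest left at -3.69, and Hoxb9 lies farthest right at 1.28 and is unfilled.

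Few Hox genes had groups that separated completely. The values of Hoxc4, Hoxc6 and Hoxc13 did not overlap between groups, 3 of the 28 tested, all lower, whereas 41.6% of all tested genes did not overlap, 20.7% as lower and 20.9% as higher. The 24 genes that did not pass had log2 fold changes from -1.15 to 1.28 and adjusted p up to 0.975. The half-width of their 95% intervals ran from 0.44 to 2.10 on the log2 scale, so at the wide end a change of 2-fold was not detectable. Splitting the libraries by Xist changed the calls. In the 4 libraries with Xist alone, 3 Hox genes were higher, Hoxb9 and Hoxc10 among them, against 26.3% of all genes tested there. In the same libraries 6 were lower (Hoxa4, Hoxa7, Hoxc4, Hoxc6, Hoxc8 and Hoxc13), against 25.4%. In the 4 libraries without Xist, which include normal replicates 1 and 2, 0 passed in either direction, 2 were lower at an unadjusted p under 0.05, and 0.0191% of all genes were higher and 0.00638% lower.

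Among markers of other cell types, genes of skeletal muscle were mostly lower and those of basal keratinocytes mostly higher. In all tested genes, 21.4% were higher and 22.7% lower. In sums of CPM, skeletal muscle genes ran from 4589 to 30579 in libraries labelled NcstnΔKC, against 22882 to 189965 in normal libraries, and 17 of 17 tested were lower. The 16 fibroblast genes ran from 5037 to 13985, against 5267 to 35864, so the ranges overlapped. Of them 2 were higher and 3 lower, shares not above those of all tested genes. The 13 basal keratinocyte genes ran from 13706 to 17396, against 9319 to 13586, with 10 higher and 2 lower. No member of these lists was at 0 in all libraries, and their part in the Hox differences was not tested. In whole skin, fewer cells of a type and less RNA per cell cannot be told apart. Scaling by the basal keratinocyte genes, which moved the median log2 fold change of all genes to -0.50, gave 13 lower Hox genes and 0 higher, against 37.4% of all genes lower and 6.49% higher. Scaling by total counts alone, which moved that median to 0.29, gave 2 lower and 2 higher, against 14.2% lower and 33.9% higher. Scaling by the fibroblast genes gave 0 lower and 0 higher (1 lower at an unadjusted p under 0.05), with 1.12% of all genes lower and 1.0% higher. Under that scaling the median log2 fold change of the 28 Hox genes was -0.78, and the SE were wider, with Hoxc4 at -1.06 ± 0.92, Hoxc6 at -1.62 ± 0.92, Hoxa4 at -1.12 ± 0.97 and Hoxc13 at -2.55 ± 0.97 (SE).

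Hoxc4, Hoxc6 and Hoxa4 belong to the neck and chest part of the code. Hoxc4 (chr15:103018934-103036852), a gene of cervical and thoracic segments, had 4.11, 6.56, 4.29 and 4.43 CPM in NcstnΔKC replicates 1 to 4, against 14.1, 9.88, 13.3 and 7.04 CPM in normal replicates 1 to 4. Every library labelled NcstnΔKC was below every normal library. Its mean was 4.85 ± 1.15 CPM, against 11.1 ± 3.26 CPM (SD, n = 4 each), 2.28-fold lower (log2 fold change -1.19 ± 0.27 SE, adjusted p = 0.00792). It passed the test with any single library left out, and without normal replicate 1 was at -0.98 ± 0.29 (SE, adjusted p = 0.0304).

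Hoxc6 (chr15:102998257-103011881), which acts in the thoracic region and whose gene body lies within that of Hoxc5, had 3.10, 10.2, 8.99 and 9.94 CPM in NcstnΔKC replicates 1 to 4, against 10.6, 20.4, 24.7 and 22.3 CPM in normal replicates 1 to 4. The groups were separated by a narrow gap between NcstnΔKC replicate 2 and normal replicate 1, the lowest of the normal group. The means were 8.07 ± 3.35 CPM and 19.5 ± 6.17 CPM, 2.41-fold lower (log2 fold change -1.27 ± 0.39 SE, adjusted p = 0.0268). The call was lost when NcstnΔKC replicate 3 (adjusted p = 0.0541), normal replicate 2 (0.0621), normal replicate 3 (0.0862) or normal replicate 4 (0.0784) was left out, over a range of adjusted p from 0.000819 to 0.620 in 27 alternatives.

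Hoxa4 (chr6:52189671-52191753), a gene of the cervical region, had 2.10, 2.05, 1.31 and 2.22 CPM in NcstnΔKC replicates 1 to 4, against 2.13, 4.44, 3.81 and 5.99 CPM in normal replicates 1 to 4. The groups touched, because normal replicate 1 lay below NcstnΔKC replicate 4. The means were 1.92 ± 0.41 CPM and 4.09 ± 1.60 CPM, 2.13-fold lower (log2 fold change -1.09 ± 0.35 SE, adjusted p = 0.0311). This was the least stable call, since it passed in 14 of 27 alternatives, with adjusted p from 0.0105 to 0.897. Leaving out NcstnΔKC replicate 2, 3 or 4 gave an adjusted p of 0.0590, 0.0852 or 0.0538, and leaving out normal replicate 2, 3 or 4 gave 0.0708, 0.0659 or 0.119.

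**Figure D4:**
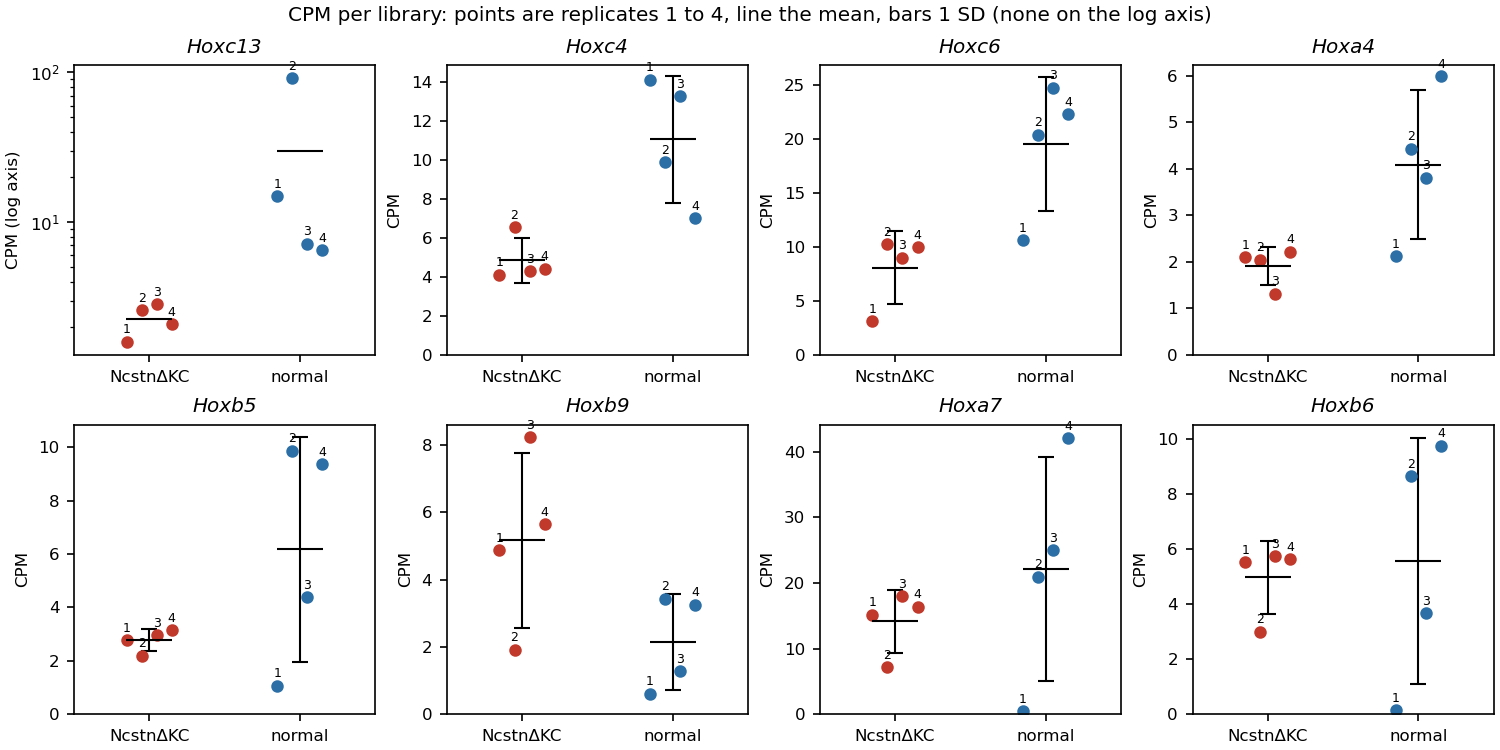
CPM of 8 Hox genes in each library (points numbered by replicate, horizontal lines are means and bars 1 SD, n = 4 per group), with the libraries labelled NcstnΔKC left of the normal libraries; the axis of Hoxc13 is logarithmic and has no bars. The points of Hoxc13, Hoxc4 and Hoxc6 do not overlap between groups, and point 1 of the normal group lies near 0 for Hoxa7 and Hoxb6.

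The other genes described from groups 2 to 4, which pattern the hindbrain, pharyngeal arches and neck, did not pass the test. Hoxa2, which gives the second pharyngeal arch its identity, had 1.09, 1.16, 1.38 and 2.28 CPM in NcstnΔKC replicates 1 to 4, against 1.67, 4.23, 1.98 and 3.78 CPM in normal replicates 1 to 4 (log2 fold change -0.96 ± 0.40 SE, adjusted p = 0.0787). Only NcstnΔKC replicate 4 reached into the normal range. Hoxa3, needed for thymus and parathyroid, had 5.20, 4.03, 7.33 and 7.79 CPM, against 1.52, 9.48, 8.61 and 16.3 CPM. Normal replicate 1 was below all libraries labelled NcstnΔKC and the other normal libraries were above them.

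The anterior Hoxb genes were among the evenly expressed members. Hoxb2, a hindbrain gene, had 3.86, 4.85, 6.498 and 6.58 CPM in NcstnΔKC replicates 1 to 4, against 3.80, 10.1, 3.53 and 7.82 CPM in normal replicates 1 to 4. Hoxb3 had 6.13, 4.24, 8.16 and 8.66 CPM, against 7.29, 15.1, 7.48 and 10.7 CPM. Hoxb4, also known for promoting growth of blood stem cells, had 4.62, 4.78, 6.08 and 7.39 CPM, against 5.47, 11.1, 7.34 and 12.1 CPM (log2 fold change -0.65 ± 0.29 SE, adjusted p = 0.0999). All 3 were present in normal replicate 1 at levels inside the range of the other libraries. Hoxd3 and Hoxd4, which shape the first vertebrae of the neck, share much of their annotated exon sequence with each other and with neighbouring transcripts (62.8% and 52.3% of bases), as does Hoxb3 with an antisense transcript (52.9%), so their counts are uncertain. The same doubt holds to a lesser degree for Hoxb2 (27.3%), Hoxa3 (27.1%), Hoxa7 (20.4%) and the lower gene Hoxa4 (16.0%), among others. The lower genes Hoxc4, Hoxc6 and Hoxc13 share no exon bases. Hoxd3 had 2.27, 1.43, 2.42 and 3.22 CPM, against 5.31, 3.83, 2.40 and 3.39 CPM. Hoxd4 had 3.36, 2.25, 3.46 and 5.24 CPM, against 4.40, 2.22, 3.39 and 5.60 CPM, and its groups covered the same range.

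Genes of groups 5 to 8, the thoracic part of the code, carried the gap in normal replicate 1. Hoxa5, which acts in lung and cervical vertebrae, had 9.23, 3.83, 10.1 and 10.8 CPM in NcstnΔKC replicates 1 to 4, against 1.82, 9.88, 7.76 and 14.98 CPM in normal replicates 1 to 4. Hoxa6 had 0.671, 0.273, 2.28 and 1.41 CPM, against 0.152, 2.62, 2.26 and 4.30 CPM. Hoxa7, a trunk gene, had 15.2, 7.17, 18.0 and 16.4 CPM, against 0.456, 20.97, 25.0 and 42.1 CPM. In all 3 the lowest library was normal replicate 1 and the next lowest was NcstnΔKC replicate 2. Their log2 fold changes were -0.02 ± 0.54, -1.002 ± 0.78 and -0.65 ± 0.80 (SE), with adjusted p of 0.975, 0.321 and 0.537. With normal replicate 1 left out, Hoxa7 was at -0.98 ± 0.35 (SE) on that scale, with an adjusted p of 0.0574.

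The Hoxb genes of the same groups showed the same gap. Hoxb5 had 2.77, 2.19, 2.97 and 3.16 CPM in NcstnΔKC replicates 1 to 4, against 1.06, 9.88, 4.38 and 9.38 CPM in normal replicates 1 to 4. Without normal replicate 1 its groups separated (log2 fold change -1.42 ± 0.33 SE, adjusted p = 0.0108), against -1.15 ± 0.55 SE (adjusted p = 0.118) with it. Hoxb6 had 5.54, 3.01, 5.74 and 5.64 CPM, against 0.152, 8.67, 3.67 and 9.77 CPM. Hoxb7 had 2.18, 2.12, 3.11 and 4.90 CPM, against 0.607, 7.46, 3.95 and 10.6 CPM. Hoxb8, whose loss makes mice groom until they lose hair, had 2.18, 1.37, 2.90 and 3.02 CPM, against 0.152, 8.67, 1.13 and 5.08 CPM. Single reads underlie the values of Hoxb6 and Hoxb8 in normal replicate 1, where each had 1 count. No test of these 3 passed in any of the 27 alternatives.

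The Hoxc and Hoxd genes of the middle groups did not share this gap. Hoxc5 was the most even member, with 5.29, 6.35, 6.43 and 7.79 CPM in NcstnΔKC replicates 1 to 4, against 7.44, 6.85, 7.76 and 8.73 CPM in normal replicates 1 to 4 (log2 fold change -0.25 ± 0.19 SE, adjusted p = 0.312). Its gene body overlaps those of Hoxc6, Hoxc8, Hoxc9 and Hoxc10 in the annotation, though only 5.37% of its exon bases are shared with another gene. Hoxc8, which acts in thoracic segments and forelimb motor neurons, had 4.95, 15.03, 9.88 and 10.1 CPM, against 8.503, 20.4, 24.8 and 18.5 CPM (log2 fold change -0.85 ± 0.39 SE, adjusted p = 0.103). Normal replicate 1 was the only normal library inside the range of the libraries labelled NcstnΔKC. Without it, the log2 fold change was -1.01 ± 0.34 SE (adjusted p = 0.0463). Hoxd8 had 9.99, 6.01, 10.2 and 10.2 CPM, against 12.9, 20.4, 9.32 and 15.5 CPM, with normal replicate 3 inside the range of the libraries labelled NcstnΔKC (log2 fold change -0.67 ± 0.28 SE, adjusted p = 0.0766).

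Genes of groups 9 and 10 act from the lower chest to the lumbar region and in the limbs. None of those tested with all 8 libraries passed (adjusted p under 0.05). Hoxa9, also known from blood stem cells, had 1.59, 0.888, 3.32 and 1.21 CPM in NcstnΔKC replicates 1 to 4, against 0.304, 3.02, 6.07 and 2.21 CPM in normal replicates 1 to 4. Hoxb9 had 4.87, 1.91, 8.23 and 5.64 CPM, against 0.607, 3.43, 1.27 and 3.26 CPM. It had the highest log2 fold change of the 28 genes, 1.28 ± 0.58 SE, and did not pass (adjusted p = 0.101). NcstnΔKC replicate 2 lay within the normal range. Without that library it passed (1.56, adjusted p = 0.0476). Hoxb9 also passed with total counts alone, with limma-trend on FPKM and in the libraries with Xist alone, and so in 4 of 27 alternatives. Hoxc9 had 0.252, 0.478, 1.04 and 1.48 CPM, against 0.759, 1.01, 1.98 and 1.82 CPM. Hoxd9 had 5.96, 2.80, 3.80 and 3.63 CPM, against 2.58, 3.23, 3.11 and 4.82 CPM, and Hoxd10, which acts in lumbar motor neurons, had 1.01, 0.752, 1.11 and 1.61 CPM, against 3.04, 0.806, 2.12 and 1.69 CPM. Neither Hoxd gene separated the groups, and normal replicate 1 had the highest Hoxd10 of all libraries. Of the remaining members of group 10, Hoxa10 reached at most 2.12 CPM in any library, and Hoxc10, which was not tested with all 8 libraries, had 73 counts in all and reached 2.21 CPM in NcstnΔKC replicate 3. Hoxc10 passed as higher in the libraries with Xist alone (log2 fold change 1.75 ± 0.59 SE, adjusted p = 0.0493). It did not pass when all 8 libraries were fitted without a filter (0.51 ± 1.14 SE, 0.754).

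The share of the posterior groups 9 to 13 in the summed FPKM of all Hox genes was 18.7%, 12.9%, 19.4% and 14.8% in NcstnΔKC replicates 1 to 4, against 30.6%, 40.9%, 14.97% and 10.8% in normal replicates 1 to 4. The 2 highest normal libraries were those with the most Hoxc13. Without Hoxc13, a choice made after the values were seen, the shares were 17.1%, 9.66%, 17.3% and 13.2%, against 15.9%, 7.15%, 10.4% and 7.75%. The ranges of the groups overlapped in both forms, and the mean of the libraries labelled NcstnΔKC was the lower one with Hoxc13 (16.5% against 24.3%) and the higher one without it (14.3% against 10.3%).

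Hoxc13 (chr15:102921103-102928814), which drives hair keratin genes and whose loss leaves mice without normal hair, was the Hox gene with the largest difference. It had 1.59, 2.60, 2.83 and 2.08 CPM in NcstnΔKC replicates 1 to 4, against 14.9, 91.1, 7.2 and 6.51 CPM in normal replicates 1 to 4. Every normal library was above every library labelled NcstnΔKC, and normal replicate 2 was far above the rest. The means were 2.28 ± 0.55 CPM and 29.9 ± 41.0 CPM (SD, n = 4 each), 12.9-fold lower (log2 fold change -3.69 ± 0.89 SE, adjusted p = 0.00968). Without normal replicate 2 the log2 fold change was -2.0 ± 0.37 SE (adjusted p = 0.00481), and in the libraries with Xist alone it was -1.44 ± 0.28 SE (adjusted p = 0.00696).

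The summed CPM of listed hair genes was also lower in the libraries labelled NcstnΔKC and, like Hoxc13, highest in normal replicate 2. The order of the other normal libraries was not shared, since normal replicate 4 had less Hoxc13 than normal replicate 1 but a higher hair shaft sum. The 21 listed keratin and trichohyalin genes of hair shaft and root sheath summed to 11.7, 13.1, 7.33 and 9.0 CPM in NcstnΔKC replicates 1 to 4, against 75.0, 43152, 33.5 and 494 CPM in normal replicates 1 to 4. Of 4 of them that could be tested, 3 were lower and 0 higher, against 22.7% and 21.4% of all tested genes: Krt28 of the inner root sheath, trichohyalin (Tchh) and Krt32 of the hair cuticle, with log2 fold changes of -11.1 ± 2.86, -10.6 ± 2.55 and -4.90 ± 1.40 (SE). These fold changes rest on normal replicate 2. Of 10 tested transcription factors of the hair matrix, 6 were lower and 0 higher, against the same 22.7% and 21.4%. The lowest p among them belonged to Gata3, a regulator of the inner root sheath (log2 fold change -1.01 ± 0.17 SE, adjusted p = 0.00172), Lef1, the Wnt effector of the matrix (-4.55 ± 0.89, 0.00383), Msx1 (-1.78 ± 0.50, 0.0180) and Msx2 (-3.98 ± 1.14, 0.0204). Lef1 had 1.93, 0.888, 1.31 and 2.08 CPM, against 18.8, 107, 7.06 and 14.2 CPM, and so ranked normal replicate 2 first as Hoxc13 did. Foxn1, which like Hoxc13 activates hair keratin genes and was picked after its values were seen, had 13.6, 9.16, 8.30 and 7.59 CPM, against 11.7, 101, 8.33 and 10.4 CPM (adjusted p = 0.102), and so was high in normal replicate 2 alone. The part of the amount of growing hair in the Hoxc13 difference was not tested.

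**Figure D5:**
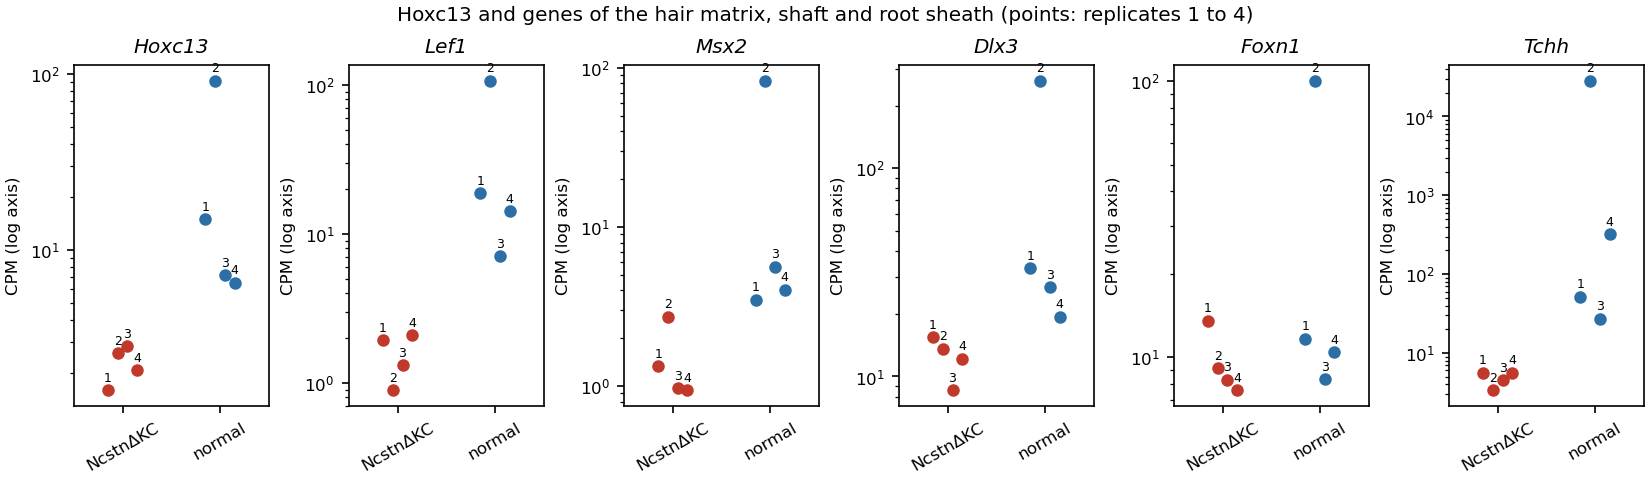
CPM on logarithmic axes of Hoxc13 and 5 genes of the hair matrix, shaft and root sheath in each library (points numbered by replicate), with the libraries labelled NcstnΔKC left of the normal libraries. Normal replicate 2 is the highest point in every panel, and the other normal libraries lie above all libraries labelled NcstnΔKC for Hoxc13, Lef1, Msx2, Dlx3 and Tchh and among them for Foxn1.

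Hox proteins bind DNA together with TALE homeodomain proteins of the Meis, Pbx and Prep families. Of 9 tested, 0 were higher and 2 were lower, a share close to the 22.7% of all genes. Pknox2, a Prep protein, was at 3.55 to 9.15 CPM in libraries labelled NcstnΔKC and 15.03 to 44.6 CPM in normal libraries (log2 fold change -2.09 ± 0.39 SE, adjusted p = 0.00328). Meis1 was at 14.9 to 27.5 CPM, against 39.7 to 57.5 CPM (-1.08 ± 0.22 SE, 0.00423). Normal replicate 1 had 52.7 CPM of Meis1, within the range of the other normal libraries, and the lowest Pknox2 of the normal group.

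Several other transcription factors, listed for their part in embryonic position, were lower. Of 14 tested genes of limb and trunk position, 8 were lower and 0 higher, against 22.7% and 21.4% of all tested genes, with a median log2 fold change of -1.38, against -0.02 for all genes. The lowest p belonged to Pax3, a gene of dermomyotome and neural crest (log2 fold change -2.69 ± 0.35 SE, adjusted p = 0.000562), Lmx1b, which gives the limb its dorsal side (-2.18 ± 0.34, 0.00135), Prrx1, a marker of limb and dermal mesenchyme (-1.01 ± 0.17, 0.00197), and Emx2, which acts in scapula and urogenital tract (-1.44 ± 0.25, 0.00220). Their values in normal replicate 1 were 2.58, 3.95, 163 and 8.05 CPM, all above every library labelled NcstnΔKC. The limb genes Tbx5 of the forelimb and Tbx4 and Pitx1 of the hindlimb, named after their values were seen, reached at most 7.44, 3.11 and 1.68 CPM in any library with groups that overlapped. In the same libraries 17 of 17 tested skeletal muscle genes were lower, and of 6 tested melanocyte genes 4 were lower and 1 higher. The part of cell content in the differences of the listed position genes was not tested.

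Of 18 genes of head position, 13 were too low to be tested. Of the 5 tested, 3 were lower and 0 higher, against 22.7% and 21.4% of all tested genes. The lower genes included Lhx6, a jaw and tooth gene (log2 fold change -1.74 ± 0.33 SE, adjusted p = 0.00326), and Alx4 of the frontonasal region (-1.28 ± 0.33, 0.0128). The Cdx genes, which switch on posterior Hox genes in the embryo, had 1 count in 1 library and 0 in all others.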

How the data were processed

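RNA was sequenced from 4 whole-skin samples labelled NcstnΔKC and 4 labelled normal, which were grouped and numbered by their titles. The authors deposited raw whole-number counts per Ensembl gene and an FPKM value per gene and library (fragments per kilobase of gene, scaled to library size). Per the submitters' processing notes, TopHat2 2.0.9, TopHat and HTSeq were used and the builds mm10 and hg38 are named without a role; the gene models, strandedness and treatment of ambiguous reads are not given in the sources used here, so reads of overlapping or antisense genes could not be told apart. The deposited FPKM were the count divided by the library total and scaled by 1 factor for each gene, to within 0.00177% for genes with at least 50 counts. The length implied by that factor exceeded the annotated exon bases for some Hox genes, so orders, sums and shares of FPKM across genes depend on it. All 39 Hox genes had the same coordinates in GENCODE M21 for mm10.

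Counts were filtered with filterByExpr, scaled by TMM and tested in edgeR 4.0.16 under R 4.3.3 (quasi-likelihood, robust, two-sided), with Benjamini-Hochberg adjustment over 15684 genes and a threshold of 0.05. The procedure was tested on simulated data. Total counts ran from 5835422 to 12893174, and intervals and limits for counts of 0 cover counting error only. Alternatives used DESeq2 1.42.0, limma 3.58.1 (with FPKM as log2(FPKM + 1)), other scalings and filters, the replicate block, Xist, thinning and leaving out libraries. Leaving out both libraries numbered 1, and the posterior share without Hoxc13, were chosen after seeing the data. Values per library were given for Hox genes with a mean of at least 1 CPM or an adjusted p under 0.05 and for groups 12 and 13, and of each list up to 4 genes with the lowest p were named. A few genes of the lists are not reported here, though they count in the totals. The members and lists were chosen with earlier results of these data known. Replicate numbers were not taken as pairs. Tables came from pandas 2.3.3 and numpy 2.4.6, plots from matplotlib 3.10.9, all in Python 3.11.15.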

Additional observations from a re-analysis of the deposited data

Results flagged for a closer look

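In 60 groups of 4 libraries, 1 value lay farther from the other 3 than Dixon's 95% limit in 4 cases, where chance gives about 1 in 20, or 3. Hoxc13 in normal replicate 2 was at 91.1 CPM, against 14.9, 7.2 and 6.51 CPM in the other normal libraries. The other 3 cases were all in NcstnΔKC replicate 2. Hoxb6 was lower there, at 3.01 CPM, against 5.54, 5.74 and 5.64 CPM. Hoxd8 was also lower, at 6.01 CPM, against 9.99, 10.2 and 10.2 CPM. Hoxc4 was higher, at 6.56 CPM, against 4.11, 4.29 and 4.43 CPM.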

How the results depend on the processing

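Genes called higher among the Hox genes numbered 0 with all libraries, 2 with total counts alone and with limma-trend on FPKM, 3 in the libraries with Xist, 1 without both libraries numbered 1, and 0 to 1 with each library left out. Genes called lower numbered 4, and 2 with total counts alone, 13 with basal keratinocyte scaling, 0 with fibroblast scaling, 2 with limma-trend on FPKM, 0 in the libraries without Xist and 2 to 6 with each library left out. Of all tested genes 6915 were called, 333 with fibroblast scaling, 4 in the libraries without Xist, and 5619 to 7994 with each library left out. The mean posterior share of the libraries labelled NcstnΔKC was 12.9% from counts, against 19.1% in the normal libraries, 5.50% for groups 10 to 13, against 19.4%, and 14.3% without Hoxc13, against 10.3%. Total counts alone moved the median log2 fold change of all genes to 0.29, limma-trend on FPKM to 0.20 and basal keratinocyte scaling to -0.50. The causes were not tested.

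The deviations of same-numbered libraries had correlations of -0.0181, -0.0315, -0.0129 and 0.218, inside the range of -0.192 to 0.238 for differently numbered libraries. These values cannot show whether animals were paired, so the replicate block served as an alternative only. With the block, 0 Hox genes were higher and 4 lower, Hoxc8 in place of Hoxa4, and 5981 genes were called.

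Signs turned in 47 cases, all of results that did not pass the test. For Hoxa5 the log2 fold change became 0.0028 with DESeq2's Wald test, 0.00044 with its size factors, 0.18 without the Xist libraries, 0.37 with limma-trend on FPKM, 0.19 with limma-voom, 0.037 without muscle, adipocyte and hair genes, 0.11 without a filter, 0.022 with Xist as a covariate, 0.12 with the block and 0.30 with total counts. For Hoxa7 it became 0.081 without the Xist libraries, 0.051 with limma-trend and 0.34 with limma-voom. For Hoxb2 it became 0.23 in the Xist libraries, 0.10 with limma-trend and 0.13 with total counts. For Hoxb6 it became 0.26 with limma-trend, 0.74 with limma-voom, 0.20 with the block and 0.17 with total counts. For Hoxb8 it became 0.35 with limma-voom, for Hoxc5 0.049 with limma-trend and 0.071 with total counts, and for Hoxd4 0.079 and 0.17 with the same changes. For Hoxd9 it became -0.11 without both libraries numbered 1, -0.061 in the Xist libraries and -0.22 with basal keratinocyte scaling. The log2 fold change of Ncstn became 0.23 with limma-trend, 0.063 without a filter, 0.10 with fibroblast scaling and 0.24 with total counts, and ran from -0.14 to 0.0055 with each library left out. With each library left out it ran from -0.29 to 0.47 for Hoxa5, -1.23 to 0.025 for Hoxa9, -0.32 to 0.17 for Hoxb2, -0.49 to 0.36 for Hoxb6, -0.96 to 0.20 for Hoxb8, -0.37 to 0.15 for Hoxd4 and -0.012 to 0.50 for Hoxd9. The normal libraries were the shallower ones, and their Hox genes rest on fewer counts.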

Other observations

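Polycomb proteins keep Hox genes silent outside their domain, and Trithorax-type proteins keep them active. Of 28 Polycomb subunits tested, 6 were higher and 7 lower in the libraries labelled NcstnΔKC, shares close to the 21.4% and 22.7% of all tested genes, with a median log2 fold change of -0.10, against -0.02 for all genes. The members with the lowest p were Rbbp4 (1.06 ± 0.13 SE, adjusted p = 0.000512) and Rbbp7 (0.59 ± 0.11, 0.00250), which bind histones and also belong to other complexes, Pcgf6 of a variant repressive complex (1.44 ± 0.20, 0.000748) and Ezh1, a histone H3 methyltransferase (-0.82 ± 0.15, 0.00249). Of 12 Trithorax-type regulators, 1 was higher and 2 lower. Wdr5, a shared scaffold of methyltransferase complexes, was higher (0.89 ± 0.13, adjusted p = 0.00108), and Dpy30 of the same complexes (-0.87 ± 0.19, 0.00677) and Kmt2a, which maintains Hox expression in the embryo (-0.62 ± 0.14, 0.00754), were lower.

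Of 11 listed noncoding transcripts of the Hox clusters, 5 were found by name in the table. Hotair and Hottip had 0 counts in all libraries, and Hotairm1, the single one of these 5 that could be tested, was at 0.940 to 1.38 CPM in libraries labelled NcstnΔKC, against 0.565 to 1.04 CPM in normal libraries (log2 fold change 0.52 ± 0.33 SE, adjusted p = 0.235). Among 6 antisense and opposite-strand rows, 2 could be tested and none exceeded 2.82 CPM. Hoxd3os1 had 0.168, 0.410, 0.622 and 0.739 CPM in NcstnΔKC replicates 1 to 4, against 1.37, 2.62, 1.27 and 1.17 CPM in normal replicates 1 to 4 (log2 fold change -1.65 ± 0.47 SE, adjusted p = 0.0188). Its neighbours Hoxd3 and Hoxd4, which it overlaps, did not pass the test, and without a stated strand setting their reads cannot be told apart.

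Markers of further cell types are given for completeness, beside the 21.4% higher and 22.7% lower of all tested genes. In sums of CPM, the 12 adipocyte genes ran from 169 to 1187 in libraries labelled NcstnΔKC, against 1091 to 5122 in normal libraries, with 9 of 12 lower. The 12 neutrophil genes ran from 236 to 492, against 56.4 to 77.0, with 11 of 11 tested higher. Of 10 endothelial genes 1 was higher and 2 lower, of 6 tested melanocyte genes 1 was higher and 4 lower, and of 8 Schwann cell genes 0 were higher and 4 lower.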
